A study of Mus musculus with 48 samples.

Results

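The killer lectin-like receptors and the other natural killer (NK) cell receptor genes on the array were followed across 4 groups of wells. Members were all named genes whose symbol begins with Klr, a family letter from a to k and a digit, together with Crtam, Nkg7, Ncr1 and Cd160, and this gave 34 genes, read by 51 probes, of 22485 named genes on the array. Where several probes read a gene, the one brightest on average across the 48 wells stood for it. Of the 34 genes, 32 were matched to the RefSeq gene table and 28 of these were assigned to chromosome 6, where the NK gene complex lies. Klra22 and Klra33 had no match, Ncr1 and Nkg7 were assigned to chromosome 7, Cd160 to chromosome 3 and Crtam to chromosome 9.

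Killer lectin-like receptors are membrane proteins with a C-type lectin-like domain that NK cells and some T cells use to sense other cells. Inhibitory members carry tyrosine motifs that recruit phosphatases, and activating members lack them and signal through adaptor proteins such as Tyrobp (DAP12) and Hcst (DAP10). In the mouse the Ly49 receptors, encoded by the Klra genes, bind major histocompatibility complex (MHC) class I molecules, and they differ in number and in sequence between inbred strains, with BALB/c known to carry fewer of them than C57BL/6. CD4+ T cells are usually low in these genes, but activated T cells can acquire some of them.

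The study asked whether Glatopa, a generic glatiramer acetate, and Copaxone, the brand product, give like expression profiles in T cells specific for the drug. Th2-455 is a nonclonal T cell line made from CD4+ cells of Copaxone-immunized female Balb/c mice (8 to 12 weeks old) and kept as 1 frozen bank after 13 rounds of restimulation. In each well these cells were cultured with naive Balb/c splenocytes as antigen-presenting cells for 24 hours, so every RNA sample held both populations. Total RNA was read on 1-colour Agilent whole mouse genome arrays, 1 array per well.

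All test articles were used at 20 µg/mL. There were 17 Copaxone wells from 9 lots, 16 Glatopa wells from 4 lots, 8 wells of AcN from 1 lot and 7 media-only wells. Mannitol is given as the control for the media-only wells, while the paper's methods say that media was added and name no mannitol. The study had excluded 1 Copaxone and 1 media-only array for poor quality. AcN is an acetonitrile nonconforming copolymer, a glatiramoid related to Copaxone but not equivalent to it in structure, and it served as the nonequivalent comparator. T cells and splenocytes were Balb/c in all groups, and all wells were run on the same day. No source states that wells came from separate cultures of the line or from separate mice, so p-values measured the spread between wells, which may be technical. In such mixed wells, fewer cells that carry a transcript and less of the transcript per cell cannot be told apart.

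Values are log2 intensities after the study's normalization. Array medians lay between 4.95 and 5.02, and the probe means over all samples had a median of 4.93 and quartiles of 4.82 and 5.88. Of the 34 genes, 24 had a mean below 5. The values deposited carry no background or detection call, so a signal near this floor cannot be told from background. Between 4.5 and 5.5, where 67.9% of all spots lay, an array held only 12 to 36 distinct values, with a median step of 0.04 between neighbouring values. Klra5, a Ly49 gene printed in 11 replicate spots, gives the spot-to-spot error: its SD within an array had a median of 0.141, and the within-group SD of the 34 genes also had a median of 0.141. Intensities of different probes are not compared as amounts of RNA. Folds given below are of normalized intensity and not of RNA.

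**Figure D1:**
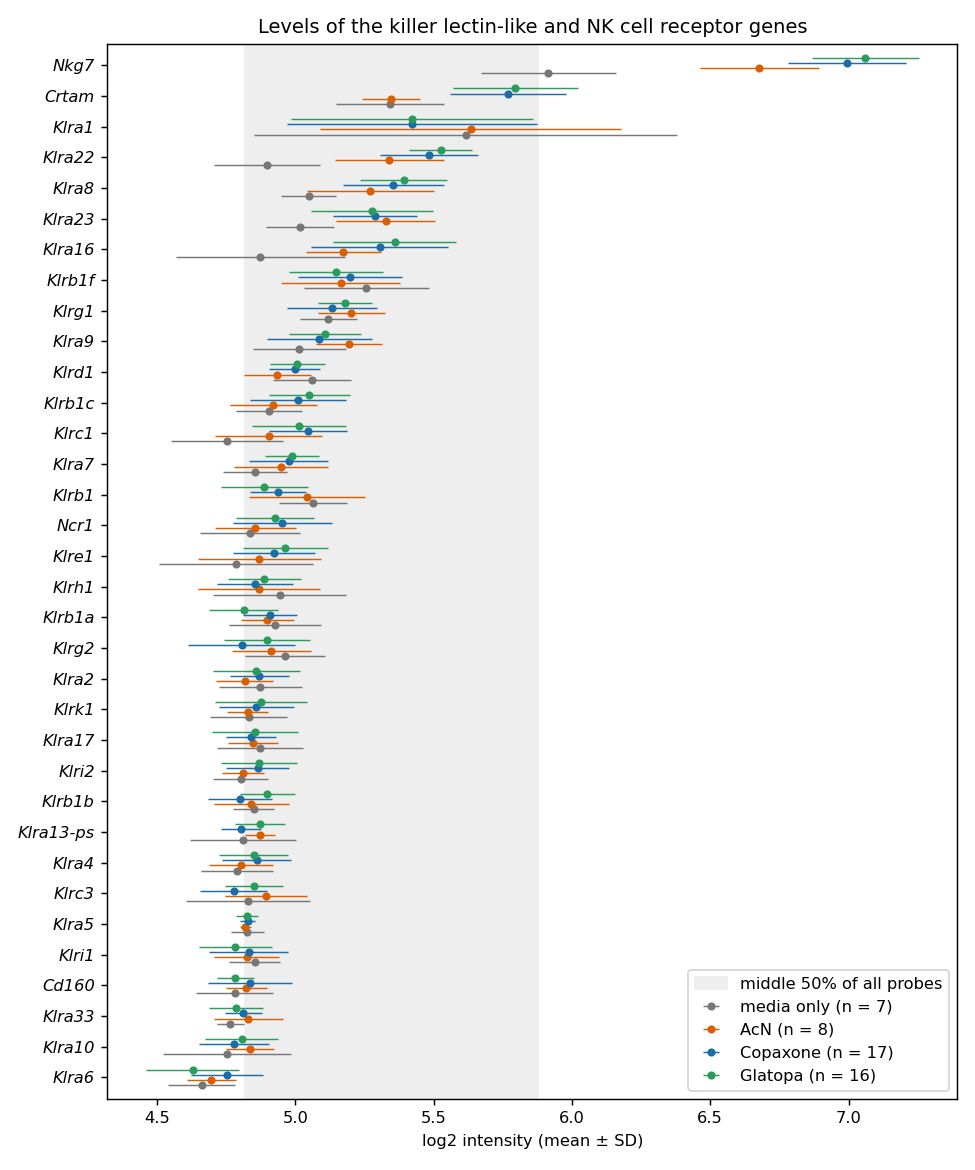
Mean log2 intensity ± SD (x axis) of the 34 genes (y axis, ordered by mean over all samples) in media-only (n = 7), AcN (n = 8), Copaxone (n = 17) and Glatopa (n = 16) wells; the grey band spans the quartiles of all probe means, 4.82 to 5.88. The Nkg7 means of the treated groups, 6.68 to 7.06, lie to the right of the band, and the media-only mean of 5.91 lies just beyond its edge. Of the 34 genes, 24 have means below 5.

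The labelled cell types were checked with marker lists. The summed linear intensity of 10 NK cell markers had a median of 389 (373 to 420) in media-only wells, 435 (399 to 512) in AcN, 446 (387 to 511) in Copaxone and 456 (369 to 490) in Glatopa wells. Of these 10 markers, 6 are themselves members (Ncr1, Klre1, Klri2, Klra4, Klra8 and Klrb1c), and the list therefore is no separate evidence. Ncr1 encodes NKp46, a marker of NK cells. It averaged 4.84 ± 0.18 (SD, n = 7) in media-only wells and 4.95 ± 0.18 (SD, n = 17) in Copaxone wells, both within the floor described above. The 4 measured Th2 markers had a median sum of 440 in media-only wells and 1702 to 2202 in the treated groups, and the 4 B cell markers had 7609 against 10546 to 11107. The sum of 6 CD4 T cell markers was lower in the treated groups (median 1329 to 1396) than in media-only wells (2410, from 1925 to 2519), and so was that of 4 neutrophil markers (769, 763 and 930 with Glatopa, Copaxone and AcN against 1348). Cd8a was higher than media by 0.46 with Copaxone (limma, adjusted p = 2.11e-07), while its partner Cd8b1 differed by -0.04 (adjusted p = 0.834). The monocyte and macrophage sum was lower in treated wells (median 391 to 447) than in media-only wells (610). The part of these cell populations in the receptor results was not tested.

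The first comparison, Copaxone against media, asks which of these genes differ between stimulated and unstimulated wells. Of 34 genes, 7 passed the test (limma, Benjamini-Hochberg adjusted p under 0.05), all of them higher with Copaxone, which is 20.6% of the members. Over all 39430 probes 16.2% passed, 8.71% higher and 7.46% lower. The 7 genes were Nkg7, Crtam, Klra22, Klra16, Klra8, Klrc1 and Klra23. The median log2 difference of the 34 genes was 0.04 against -0.00 for all probes, and the 95% confidence intervals of 26 genes lay within 1.3-fold in either direction. Near the floor, a narrow interval does not show like RNA levels. Where the values were renormalized by cyclic loess, the same comparison again called 7 genes higher and 0 lower, while the split over all probes went from 3433 higher and 2941 lower to 2598 and 3546.

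Glatopa against media also gave 7 higher and 0 lower of 34, beside 18.9% of all probes, 10.3% higher and 8.56% lower. The split over all probes was 4077 higher and 3376 lower, or 3286 and 3915 after cyclic loess, where 6 members were called. With the mean over the probes of a gene, 5 members were called with Glatopa. AcN against media gave 3 higher and 0 lower, or 8.82% of the members, beside 7.08% of all probes, 3.73% higher and 3.36% lower. Its split of 1470 higher and 1323 lower became 1124 and 1608 after cyclic loess, where 3 members were again called. The AcN comparison had 8 wells against 7, fewer than the other comparisons. The 3 comparisons use the same 7 media-only wells, and their values are given side by side below.

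**Figure D2:**
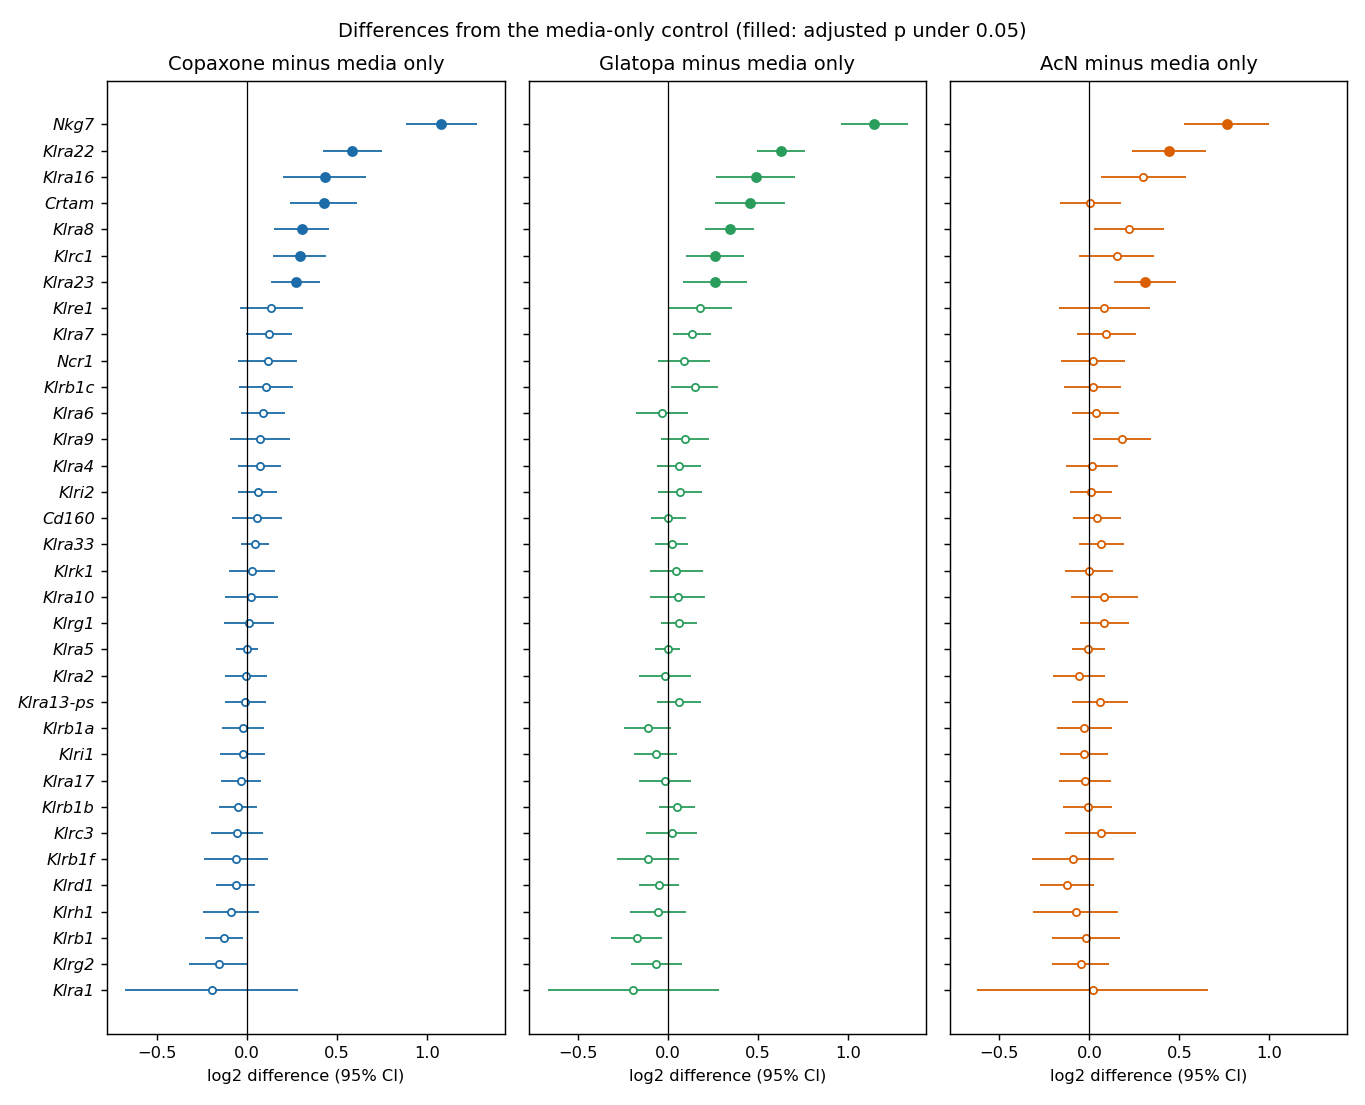
Log2 difference from the media-only wells (x axis, bars are 95% confidence intervals) for each of the 34 genes (y axis, ordered by the Copaxone difference) with Copaxone, Glatopa and AcN; filled points passed an adjusted p under 0.05. Nkg7 had the highest difference in each panel (1.08, 1.15 and 0.76), 7, 7 and 3 points are filled, and all filled points are to the right of 0.

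Nkg7, a membrane protein of cytotoxic granules that is needed for their release, differed most. Its log2 intensity ran from 5.56 to 6.26 (median 5.95, n = 7) in media-only wells. With Copaxone it ran from 6.71 to 7.68 (median 6.97, n = 17). With Glatopa it ran from 6.76 to 7.45 (median 7.06, n = 16). All Copaxone and all Glatopa wells lay above the highest media-only well, with no overlap. The 8 AcN wells ran from 6.22 to 6.89 (median 6.72), and 7 of them lay above the media-only wells. The exception, AcN replicate 2 at 6.22, fell just inside the media-only range.

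The differences from media for Nkg7 were 1.08 (SE 0.10, 2.11-fold, adjusted p = 4.65e-09) with Copaxone, 1.15 (SE 0.09, 2.21-fold, adjusted p = 4.88e-10) with Glatopa and 0.76 (SE 0.11, 1.70-fold, adjusted p = 3.15e-04) with AcN. The other Nkg7 probe gave 1.19, 1.18 and 0.93, each with an adjusted p under the threshold, and all 8 AcN wells were above media on it. Nkg7 was the only member that did not overlap between Copaxone and media, where 2.52% of all probes did not. With Glatopa, Nkg7 and Klra22 did not overlap, beside 3.71% of all probes. With AcN no member was free of overlap, beside 2.3% of all probes.

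Crtam is a receptor of the immunoglobulin superfamily that binds Cadm1 and appears on activated NK cells, CD8+ T cells and some CD4+ T cells. Media-only wells ran from 5.06 to 5.65 (median 5.31). Copaxone wells ran from 5.31 to 6.24 (median 5.74) and Glatopa wells from 5.15 to 6.10 (median 5.80). AcN wells ran from 5.19 to 5.48 (median 5.31), wholly inside the media-only range.

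Crtam was higher than media by 0.43 (SE 0.09, adjusted p = 0.00102) with Copaxone, with 12 of 17 wells above every media-only well, and by 0.45 (SE 0.09, adjusted p = 7.68e-04) with Glatopa, with 13 of 16. With AcN the difference was 0.00 (95% CI -0.16 to 0.17, adjusted p = 0.986). The lowest Copaxone value (lot 9, replicate 2) and the lowest Glatopa value (lot 2, replicate 2) each stood well below the next well of their group, at 5.59 and 5.63.

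**Figure D3:**
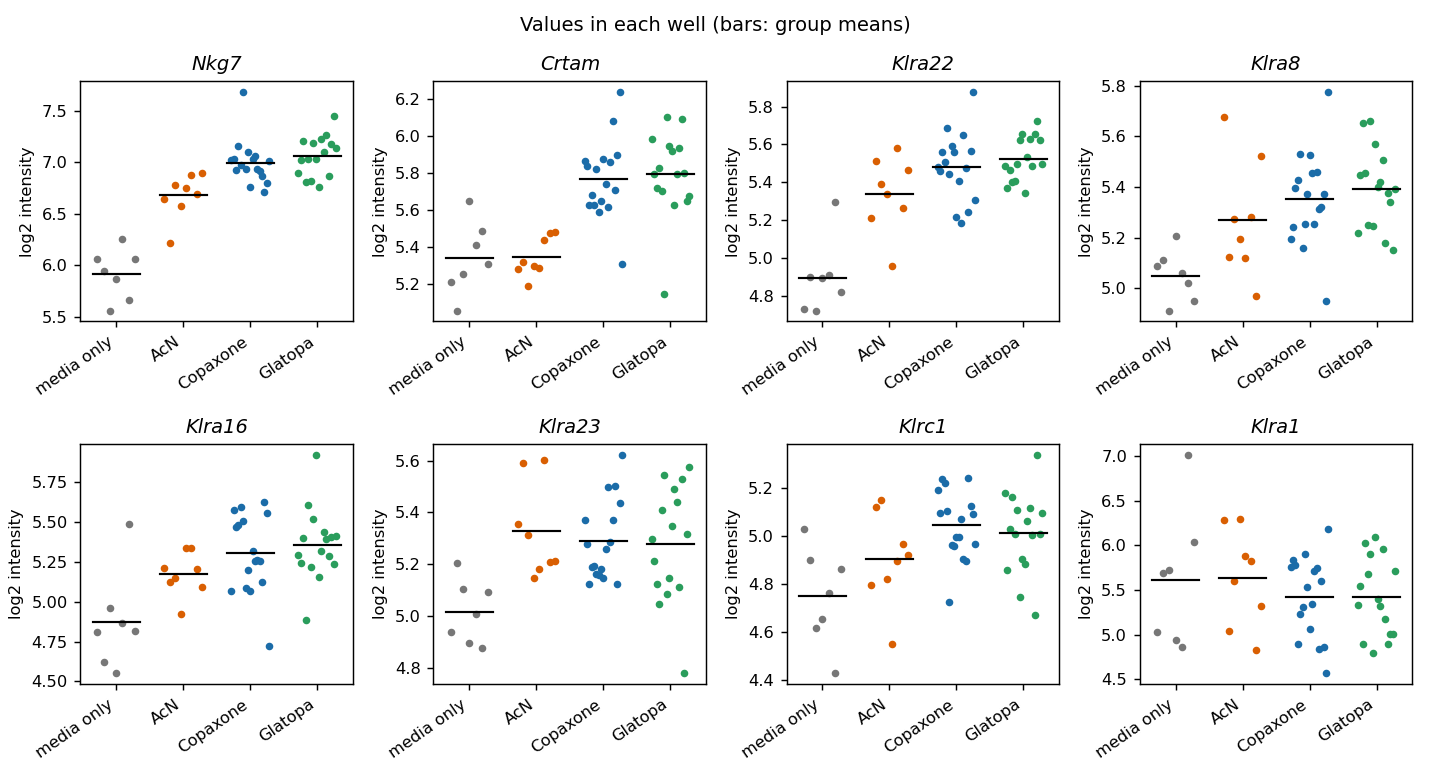
Log2 intensity (y axis) of 8 genes in every well, by group (x axis; points within a group run by lot and replicate, black bars are group means; each panel has its own scale). Nkg7 shows no overlap between media-only wells (up to 6.26) and Copaxone or Glatopa wells (from 6.71), the AcN wells of Crtam (5.19 to 5.48) lie inside the media-only range, and Klra1 spreads widely in all groups.

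Among the 15 Klra genes, which encode the Ly49 receptors, 4 were called in at least 1 comparison with media: Klra22, Klra8, Klra16 and Klra23. Klra8 encodes Ly49H, an activating receptor known from C57BL/6 mice and absent from BALB/c. Klra16 (Ly49P), Klra22 (Ly49V) and Klra23 (Ly49W) were described in other strains, and the RefSeq table of the C57BL/6 genome places Klra16 and Klra23 only on alternate-strain sequence. Ly49 genes are near-identical over long stretches and the probe sequences were not used here, so which Ly49 transcript such a probe reads in Balb/c cells was not tested. Each name below is that of a probe's annotated gene.

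Klra22 ran from 4.72 to 5.30 (median 4.89) in media-only wells, and its highest value, in replicate 6, stood apart from the other 6 at 4.72 to 4.91. Glatopa wells ran from 5.35 to 5.72 (median 5.5), all above the media-only wells. Copaxone wells ran from 5.19 to 5.88 (median 5.48) and AcN wells from 4.96 to 5.58 (median 5.36), and 14 of 17 and 5 of 8 were above every media-only well. Klra22 was higher than media by 0.59 (SE 0.08, adjusted p = 4.92e-06) with Copaxone, 0.63 (SE 0.06, adjusted p = 4.75e-08) with Glatopa and 0.44 (SE 0.10, adjusted p = 0.00863) with AcN. Its media-only mean of 4.90 lay at the floor, and these values are differences of normalized intensity with no fold in RNA given. The other Klra22 probe differed by -0.05, -0.05 and -0.22, with none called. With the mean over both probes the AcN difference was 0.11 (adjusted p = 0.337).

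Klra8 ran from 4.91 to 5.20 (median 5.06) in media-only wells, from 4.95 to 5.78 (median 5.37) with Copaxone, from 5.15 to 5.66 (median 5.40) with Glatopa and from 4.97 to 5.68 (median 5.23) with AcN. Every treated group overlapped the media-only wells, and 14 of 17 Copaxone and 14 of 16 Glatopa wells lay above all of them. The differences were 0.30 (SE 0.07, adjusted p = 0.00363), 0.34 (SE 0.07, adjusted p = 2.91e-04) and 0.22 (SE 0.09, adjusted p = 0.198), the last not called. Of its 3 probes, the second gave larger differences (0.51, 0.49 and 0.34, adjusted p = 5.46e-05, 1.10e-04 and 0.0339), and the third gave 0.06, -0.00 and -0.10 with none called. Klra8 thus has 2 probes that moved and 1 that was not called.

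Klra16 ran from 4.55 to 5.49 (median 4.82) in media-only wells, where replicate 6 was again the highest and the other 6 ended at 4.96. Copaxone wells ran from 4.72 to 5.63 (median 5.26), Glatopa wells from 4.88 to 5.92 (median 5.36) and AcN wells from 4.92 to 5.34 (median 5.18). Because of replicate 6, only 5 of 17 Copaxone and 3 of 16 Glatopa wells exceeded all media-only wells. The differences were 0.43 (SE 0.11, adjusted p = 0.00762) with Copaxone, 0.49 (SE 0.11, adjusted p = 0.00135) with Glatopa and 0.30 (SE 0.11, adjusted p = 0.14) with AcN. Without media-only replicate 6 they were 0.53 with Copaxone and 0.59 with Glatopa. The other 2 probes of Klra16 differed by 0.01 to 0.09 and were not called. On the called probe the media-only mean of 4.87 lay at the floor.

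Klra23 ran from 4.88 to 5.20 (median 5.01) in media-only wells, from 5.12 to 5.62 (median 5.26) with Copaxone, from 4.78 to 5.57 (median 5.31) with Glatopa and from 5.15 to 5.60 (median 5.26) with AcN. The ranges overlapped in all 3 cases. It was higher by 0.27 (SE 0.07, adjusted p = 0.00413), 0.26 (SE 0.09, adjusted p = 0.0344) and 0.31 (SE 0.08, adjusted p = 0.0271), and it was the only called member whose highest mean was in AcN wells (5.33 ± 0.18, SD, n = 8), although AcN and Copaxone differed by only 0.04 (95% CI -0.10 to 0.18). Its other probe differed by -0.11, -0.09 and -0.09 and was not called. The Glatopa call was lost without media-only replicate 1, 4, 5 or 6 or Glatopa lot 2 or 3 (adjusted p 0.057 to 0.0955), and the AcN call without media-only replicate 1, 4 or 6 or AcN replicate 6 (adjusted p 0.0506 to 0.0614).

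**Figure D4:**
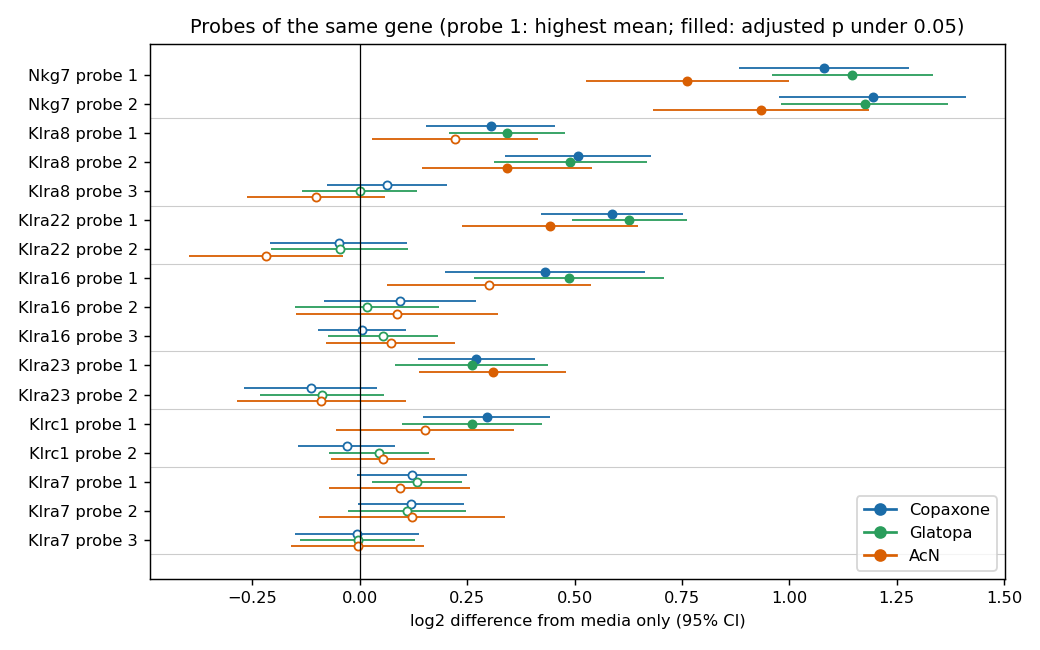
Log2 difference from media-only wells (x axis, bars are 95% confidence intervals) for each probe of 7 genes with more than 1 probe (y axis, probe 1 has the highest mean), with Copaxone, Glatopa and AcN; filled points passed an adjusted p under 0.05. All Nkg7 points are filled, as are those of the first 2 Klra8 probes except AcN on probe 1, while for Klra22, Klra16, Klra23 and Klrc1 only the first probe has filled points.

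Klra1 encodes Ly49A, an inhibitory receptor for MHC class I molecules including those of BALB/c mice. Its probe had a wide spread in every group: media-only wells ran from 4.86 to 7.02 (median 5.69), Copaxone wells from 4.57 to 6.18 (median 5.54), Glatopa wells from 4.80 to 6.10 (median 5.37) and AcN wells from 4.82 to 6.29 (median 5.72). The highest of all these values was again media-only replicate 6. The differences from media were -0.19, -0.19 and 0.02, none called, and the 95% CI for Copaxone ran from -0.67 to 0.29. The interval includes levels more than 1.3-fold lower than media.

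The remaining 10 Klra genes gave no call against media. Klra7, an inhibitory Ly49 receptor (Ly49G), came nearest with Copaxone (0.12, limma, adjusted p = 0.23) and with Glatopa (0.13, adjusted p = 0.0693). With AcN Klra7 was at 0.09 (adjusted p = 0.633), and Klra9 came nearest at 0.18 (adjusted p = 0.215). Klra4, an activating receptor (Ly49D), averaged 4.79 ± 0.13 (SD, n = 7) in media-only and 4.86 ± 0.12 (SD, n = 17) in Copaxone wells. Its values ran from 4.55 to 5.10 over all groups, at the floor.

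The 250 bases before the annotated start were taken for Klra8, called here, and for Klra4, not called. Of the member windows, that of Klra4 was the most like that of Klra8. Both come from RefSeq's GRCm38.p6 annotation (chr6:130129899-130130148, minus strand, for the first of 2 Klra8 starts, and chr6:130067272-130067521, minus strand). Nkg7 is printed with them (chr7:43436888-43437137, plus strand) because its difference was the largest. Capitals mark matches to 5 motifs searched on both strands.
Nkg7: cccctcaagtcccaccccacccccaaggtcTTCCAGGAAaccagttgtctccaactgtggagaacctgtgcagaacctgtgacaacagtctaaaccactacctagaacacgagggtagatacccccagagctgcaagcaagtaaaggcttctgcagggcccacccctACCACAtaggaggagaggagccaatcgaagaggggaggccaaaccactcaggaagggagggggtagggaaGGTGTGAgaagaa
Klra8: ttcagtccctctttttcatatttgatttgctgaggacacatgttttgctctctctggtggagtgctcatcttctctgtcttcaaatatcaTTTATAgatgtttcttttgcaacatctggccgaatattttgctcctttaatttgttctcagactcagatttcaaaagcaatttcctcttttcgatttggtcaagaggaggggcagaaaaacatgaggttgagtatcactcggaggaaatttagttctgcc
Klra4: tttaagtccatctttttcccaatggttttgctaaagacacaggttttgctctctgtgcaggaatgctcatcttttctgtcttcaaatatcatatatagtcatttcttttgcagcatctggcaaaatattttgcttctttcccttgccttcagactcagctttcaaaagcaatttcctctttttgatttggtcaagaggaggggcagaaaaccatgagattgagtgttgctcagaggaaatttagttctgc

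In a global alignment the Klra4 window was 84.5% identical to that of Klra8, Klra17 was 77.9%, the more alike of the Klra7 windows 75.2% and Klra1 47.2%. Windows of Nkg7, Ncr1 and Cd160, which are not Klra genes, gave 45.2% to 49.2%, so the Klra1 value shows no likeness. These windows lie before the transcripts and do not show how alike the transcripts are. The Klra8 and Klra4 stretches match over most of their length. Both are from the reference genome and not from Balb/c, where Klra8 is described above as absent. Which transcripts the probes named Klra8 and Klra4 read in Balb/c cells was not tested. A relation between the likeness of these windows and the calls was therefore not tested either. The promoter table held 31 windows for 25 of the 34 genes, among 32851 windows in all. A T-box motif (TCACACC) was in 3.33% of all windows and in those of 2 members, Nkg7 and Cd160. A Runx motif (TGTGGT) was in 14% of all windows and in 12 of the 31 member windows, from 10 genes. A STAT motif (TTCNNNGAA) was in 7.02% and in 5 member windows, from 5 genes. An AP-1 motif (TGANTCA) was in 6.75% and in 0, and TATAAA in 12.4% and in 9, from 8 genes. Of the called genes, Crtam, Klra16, Klra22 and Klra23 had no window. In the Nkg7 window the capitals are, in order, the STAT match from base -220, the Runx match on the reverse strand from -83 and the T-box match on the reverse strand from -13. In the Klra8 window they are a reverse-strand match to TATAAA, and Klra4 had no match. A match describes letters and not a bound site.

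The Klrc and Klrd genes form CD94/NKG2 receptors, in which Klrd1 (CD94) pairs with a Klrc chain and recognises the nonclassical class I molecule encoded by H2-T23. Klrc1, the inhibitory NKG2A chain, ran from 4.43 to 5.03 (median 4.76) in media-only wells, from 4.72 to 5.24 (median 5.07) with Copaxone, from 4.67 to 5.34 (median 5.02) with Glatopa and from 4.55 to 5.15 (median 4.91) with AcN. All groups overlapped, and no value exceeded 5.34. The media-only mean of Klrc1, 4.75, lay at the floor, where signal cannot be told from background. The differences were 0.30 (SE 0.07, adjusted p = 0.00393), 0.26 (SE 0.08, adjusted p = 0.0194) and 0.15 (SE 0.10, adjusted p = 0.49). The called probe is annotated to a full-length cDNA clone, and the probe annotated to the RefSeq transcript differed by -0.03, 0.04 and 0.05 and was not called.

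Klrd1, the partner chain, differed from media by -0.06 with Copaxone (95% CI -0.17 to 0.04), -0.05 with Glatopa (95% CI -0.16 to 0.06) and -0.13 with AcN (95% CI -0.28 to 0.03). Its values ran from 4.82 to 5.34 over all groups. Klrc3, another NKG2 chain, differed by -0.05, 0.02 and 0.06. Of the CD94/NKG2 genes only the first Klrc1 probe was called.

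Klrk1 encodes NKG2D, the activating receptor for stress-induced ligands of the Rae1, H60 and Ulbp1 families. It averaged 4.83 ± 0.14 (SD, n = 7) in media-only wells and differed by 0.03, 0.05 and -0.00 with Copaxone, Glatopa and AcN, with all 95% CIs between -0.14 and 0.19. The 5 Klrb genes, which encode the NKR-P1 receptors for Clec2 ligands, gave no call. Klrb1 had the lowest differences among them, -0.13 with Copaxone (adjusted p = 0.108) and -0.18 with Glatopa (adjusted p = 0.0753), and Klrb1c, the NK1.1 antigen in C57BL/6 mice, had 0.11 and 0.15 (adjusted p = 0.401 and 0.124). Klrg1, an inhibitory receptor for cadherins that marks differentiated T and NK cells, averaged 5.12 ± 0.10 (SD, n = 7) in media-only wells and differed by 0.01, 0.06 and 0.08, with none called.

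Ncr1 differed from media by 0.12 with Copaxone, 0.09 with Glatopa and 0.02 with AcN, and Cd160, an immunoglobulin-family receptor that binds Tnfrsf14, by 0.06, 0.00 and 0.04. Neither gene was called. Over the 26 members other than the 8 described well by well, group means lay between 4.63 and 5.26. Their differences from media ran from -0.16 (Klrg2) to 0.14 (Klre1) with Copaxone, from -0.18 (Klrb1) to 0.18 (Klre1) with Glatopa and from -0.13 (Klrd1) to 0.18 (Klra9) with AcN. The smallest adjusted p values were 0.108, 0.0693 and 0.215. At an unadjusted p under 0.05 there were 8, 11 and 6 of the 34 members in the 3 comparisons, beside 25.3%, 27.6% and 17.6% of all probes.

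The second question was whether the 3 materials differ from each other at the same dose and time, over 3 pairs. Glatopa against Copaxone called 0 of the 34 genes, and 0% of all probes (limma). At an unadjusted p under 0.05 there were 4 genes, Klra13-ps, Klra6, Klrb1a and Klrb1b, beside 4.13% of all probes, and the methods' t-test also left 0 members after adjustment. All 34 95% confidence intervals lay within 1.3-fold in either direction. The widest was that of Klra1, from -0.30 to 0.30. For the 24 genes with a mean below 5, a narrow interval can reflect the floor and does not show like RNA levels. For Nkg7 the Glatopa minus Copaxone difference was 0.07 (95% CI -0.08 to 0.21), and for Crtam it was 0.03 (95% CI -0.12 to 0.18).

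AcN against Copaxone called 1 gene, Crtam, lower by 0.42 on the log2 scale (-0.42, SE 0.08, 95% CI -0.58 to -0.26, adjusted p = 0.0342), beside 0.112% of all probes, 0.071% higher and 0.0406% lower. This is 1.34-fold. Of 8 AcN wells, 4 lay below every Copaxone well. The call was lost with the methods' t-test (adjusted p = 0.0592), and without AcN replicate 1, 2 or 4 or Copaxone lot 2, 4, 5 or 7, where the adjusted p was 0.053 to 0.101 while the difference stayed between -0.40 and -0.44. Without Copaxone lot 9, which held the lowest and the highest Copaxone well, it was -0.42 with an adjusted p of 0.00277.

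AcN against Glatopa called 2 genes, both lower with AcN, beside 0.68% of all probes, 0.495% higher and 0.185% lower. Crtam differed by -0.45 (SE 0.08, 1.37-fold, adjusted p = 0.0101), although the lowest single Glatopa well lay below all AcN wells. Nkg7 differed by -0.38 (SE 0.08, 1.3-fold, adjusted p = 0.0298), and 5 of 8 AcN wells were below every Glatopa well. The other Nkg7 probe gave -0.24 (adjusted p = 0.298) and was not called. The Nkg7 call was also lost without AcN replicate 1, 2 or 4 or Glatopa lot 2, 3 or 4, at -0.32 to -0.40 with adjusted p from 0.0546 to 0.0876.

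**Figure D5:**
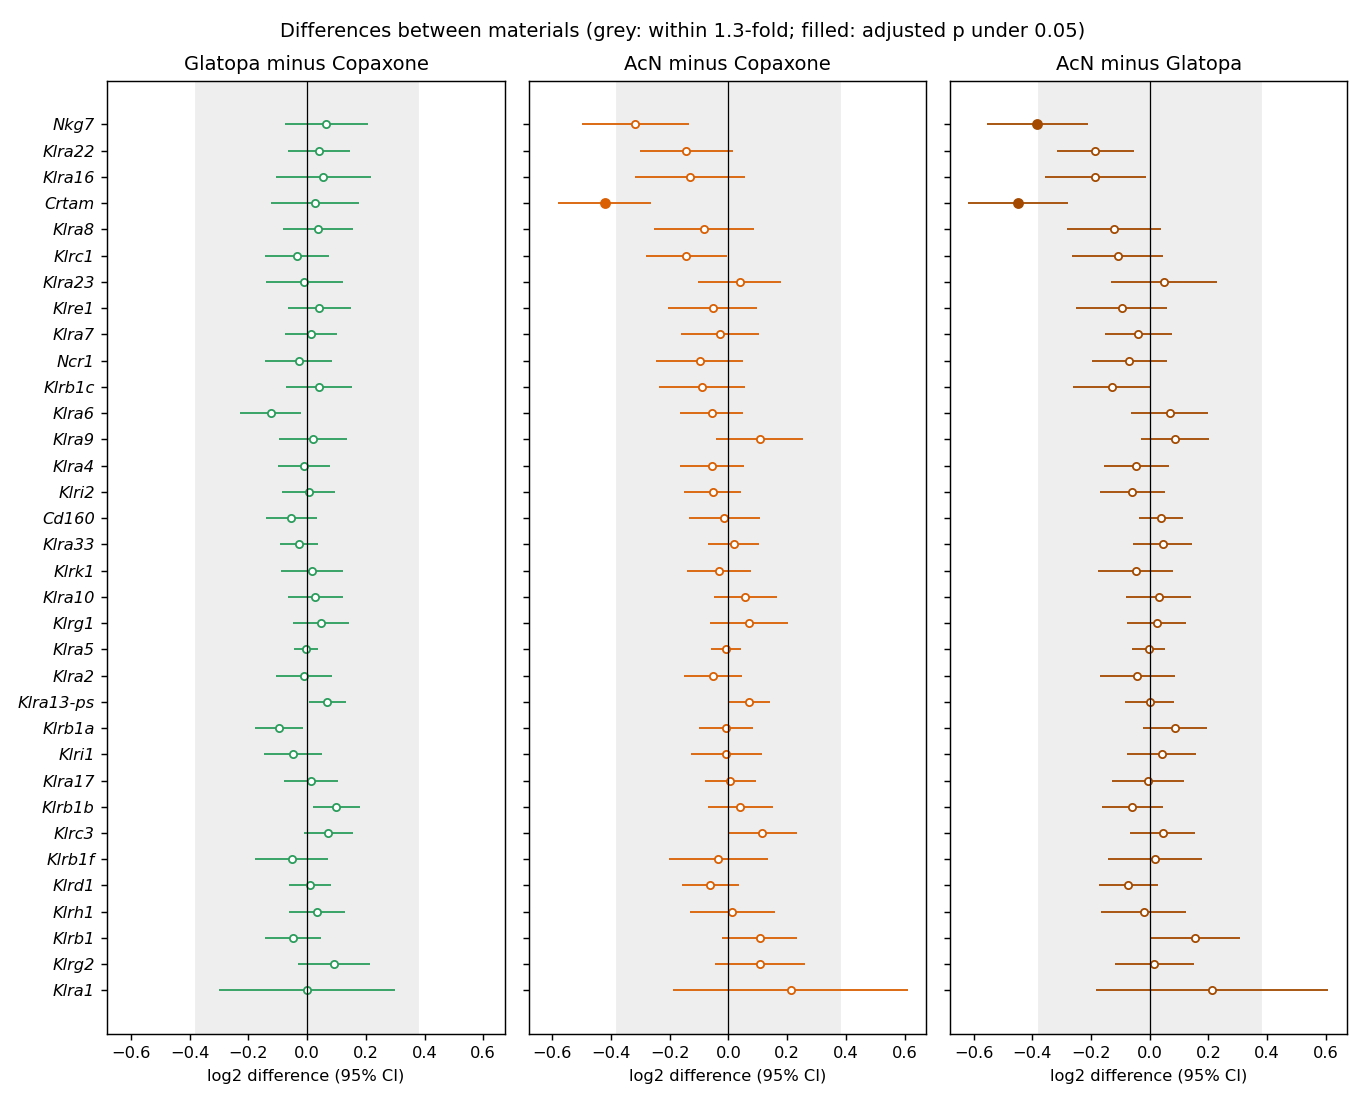
Log2 differences between materials (x axis, bars are 95% confidence intervals) for the 34 genes (y axis); grey marks 1.3-fold in either direction and filled points passed an adjusted p under 0.05. All Glatopa minus Copaxone intervals lie inside the grey band, Crtam is filled for AcN against both products (-0.42 and -0.45), and Nkg7 is filled for AcN against Glatopa (-0.38). Of the 34 genes, 24 have means below 5, near the floor, where a narrow interval does not show like RNA levels.

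Against Copaxone, Nkg7 was lower with AcN by a like amount (-0.32, 95% CI -0.50 to -0.14, adjusted p = 0.191), a difference that did not pass the adjustment. Klra22 was at -0.14 against Copaxone (95% CI -0.30 to 0.02) and -0.18 against Glatopa (95% CI -0.31 to -0.05, adjusted p = 0.213). No member was free of overlap between AcN and Copaxone or Glatopa wells, beside 0.00254% and 0.038% of all probes. In both AcN pairs 31 of 34 intervals were within 1.3-fold, and the 3 exceptions were Nkg7, Crtam and Klra1. The limit for genes near the floor holds here too. The median difference over the 34 genes was -0.02 against Copaxone and -0.01 against Glatopa, beside -0.00 for all probes in both. At an unadjusted p under 0.05 there were 3 and 5 genes, beside 8.01% and 10.7% of all probes.

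Lots of the same product were compared by an F test over lots. Among the 9 Copaxone lots 0 members were called, beside 0.0254% of all probes, and 1 member (Klra23) had an unadjusted p under 0.05, beside 3.4% of probes. Among the 4 Glatopa lots 0 members were called, beside 0% of probes, and 2 members (Klrb1c and Klra6) had an unadjusted p under 0.05, beside 3.94%. Lot means of Nkg7 ran from 6.71 (lot 8, 1 well) to 7.33 (lot 3) for Copaxone and from 6.98 to 7.16 for Glatopa, all above the media-only mean of 5.91 ± 0.24 (SD, n = 7). Lot means of Crtam ran from 5.62 to 5.90 for Copaxone and from 5.72 to 5.83 for Glatopa. The 2 wells of Copaxone lot 9 were often at opposite ends of the Copaxone range: well 1 had the highest Crtam (6.24) and the lowest Klra8 (4.95), and well 2 had the lowest Crtam (5.31) and the highest Klra8 (5.78). Without lot 9 the same comparison with media again called 7 members.

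Genes of the same pathways were read from lists that are not part of the receptor set, and their counts stand beside the shares of all probes called against media: 8.71% higher and 7.46% lower with Copaxone, 10.3% and 8.56% with Glatopa, and 3.73% and 3.36% with AcN. The adaptor and kinase list gave 0 higher and 6 lower of 17 measured genes with Copaxone, beside 8.71% and 7.46% of all probes, and a median of -0.02 beside -0.00. Tyrobp, the DAP12 adaptor of activating Ly49 receptors, was lower by 1.11 (-1.11, adjusted p = 2.01e-10), and Hcst, the adaptor of NKG2D, differed by -0.77 (adjusted p = 0.00527). Both are also expressed by myeloid cells, whose marker sum was lower in treated wells, and the part of these cells was not tested. Fcer1g (-0.61), Syk (-0.74), Ptpn6 (-0.29) and Sh2d1a (-0.42) were the other lower genes. Counts were 0 and 6 with Glatopa and 0 and 5 with AcN, where Tyrobp was at -1.22 and -0.86. AcN wells were higher than Glatopa wells for Tyrobp by 0.36 (adjusted p = 0.00663).

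The ligand list gave 0 higher and 4 lower of 21 genes with Copaxone (median -0.02), 0 and 2 with Glatopa and 0 and 1 with AcN. Over all probes 7.46%, 8.56% and 3.36% were lower, and 16.2%, 18.9% and 7.08% were called in either direction. The Glatopa and AcN counts were near the share of probes called lower. Clec2i, a ligand of NKR-P1 receptors, was lower in all 3 comparisons (-0.67, -0.63 and -0.62). Clec2d, another such ligand, was at -0.44 with Copaxone (adjusted p = 0.0155), and Cdh2, a cadherin bound by Klrg1, was at -0.64 (adjusted p = 2.16e-04). The class I genes H2-K1 and H2-D1 and the CD94/NKG2 ligand gene H2-T23 differed from media by -0.02, 0.12 and -0.05 with Copaxone, none called, and Cadm1, the ligand of Crtam, by -0.12 (adjusted p = 0.304).

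The list of other receptors of NK and cytotoxic cells gave 6 higher and 2 lower of 20 with Copaxone, beside 8.71% and 7.46% of all probes, with a median of -0.01. The higher genes included Il2rb, the interleukin-2 receptor β chain (1.01, adjusted p = 3.31e-05), and Slamf6 (0.56, adjusted p = 1.02e-05), and Cd7 was lower (-0.50). With Glatopa 4 were higher and 3 lower, and with AcN 2 were higher and 0 lower. The cytotoxic effector list gave 11 higher and 1 lower of 21 with Copaxone (median 0.42), 13 and 1 with Glatopa (0.56) and 8 and 1 with AcN (0.35), beside 16.2%, 18.9% and 7.08% of all probes in either direction. Its members included Gzma (5.07, 5.22 and 4.73), Prf1, the pore-forming perforin (0.59 with Copaxone, adjusted p = 4.43e-04), and Ccl5, which was lower (-2.06). AcN wells were lower than Glatopa wells for 5 of these 21 genes, Gzma, Gzme, Ifng, Ccl3 and Xcl1, beside 0.185% of all probes lower, and lower than Copaxone wells for 1, Ifng (-0.52, adjusted p = 0.0359), beside 0.0406%.

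The transcription factor list gave 3 higher and 2 lower of 14 with Copaxone, 6 and 3 with Glatopa and 2 and 1 with AcN, beside 16.2%, 18.9% and 7.08% of all probes in either direction. Nfil3, a factor required for NK cell development and also induced in activated T cells, was higher by 2.66, 2.84 and 2.62. Eomes, a T-box factor of NK and CD8+ T cells, was higher by 0.77, 0.76 and 0.79 (adjusted p = 1.04e-07, 2.87e-06 and 7.98e-05). Tbx21, the other T-box factor, was higher by 0.61 with Copaxone and 0.67 with Glatopa. Zbtb16, a factor of innate-like T cells, was lower by 0.56 with Copaxone (-0.56, adjusted p = 1.07e-05) and was at -0.61 and -0.40 with the other materials.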

How the data were processed

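RNA from 48 wells was measured on 1-colour Agilent arrays. The deposited values are log2 intensities: per the study's methods, the authors corrected median signals with normexp (offset of 8) and quantile-normalized them in limma, which evens the arrays' distributions and lifts dim spots toward a common floor. Both excluded arrays were not analysed here. The table held 43020 spots, and spots printed at least 10 times for a gene and accession were averaged, giving 39430 probes. Groups and lots came from the sample labels. limma 3.58.1 (R 4.3.3) was run for each pair of groups with no covariate and no filter, and as an F test over lots, with Benjamini-Hochberg adjustment over all probes and a threshold of 0.05. The test was checked on simulated data. The members and gene lists were chosen with earlier results of these data known. Genes described well by well are those called in any of 6 comparisons and the 6 with the highest means. Other probes are given for these. Alternatives tried were the Student t-test, 1 fit of all groups, another variance prior, cyclic loess, probes above the median level, single spots, the mean over probes, lot and replicate blocks, a 1.3-fold limit and leaving out each media-only or AcN replicate or each lot. Slides hold 4 arrays, and their assignment was not used here. Gene names come from the platform annotation, and promoters from RefSeq (GRCm38.p6), aligned with Biopython 1.88. Precision is limited by the number of arrays, and no depth applies.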

Additional observations from a re-analysis of the deposited data

Results flagged for a closer look

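In 7 of 68 groups tested (34 genes in the media-only and AcN groups), 1 well stood apart from the others of its group by Dixon's test at the 95% level, and chance alone gives about 1 in 20 groups. For Nkg7, AcN replicate 2 was the lowest at 6.22, with the other 7 wells at 6.58 to 6.89. For Klra22, media-only replicate 6 was the highest at 5.30, with the others at 4.72 to 4.91. The same well was the highest for Klrb1a, an NKR-P1 receptor, at 5.30, with the others at 4.82 to 4.90. AcN replicate 2 was also the highest for Klrd1 at 5.22 (others 4.84 to 4.96) and the lowest for Klrg2 at 4.62 (others 4.87 to 5.09). For Klra6 the highest media-only well was replicate 7 at 4.90 (others 4.55 to 4.70), and for Klra10 the lowest AcN well was replicate 5 at 4.65 (others 4.80 to 4.93). Without media-only replicate 6, Klra22 was higher than media by 0.65 with Copaxone, 0.69 with Glatopa and 0.51 with AcN, all called. Without AcN replicate 2 the Nkg7 difference from Glatopa was -0.32 (limma, adjusted p = 0.0609) and lost its call.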

How the results depend on the processing

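No result changed direction under any alternative run. The Glatopa and Copaxone comparison called 0 members under every alternative, as did the lots of each product under theirs. Against media, the 1.3-fold limit left 4 members with Copaxone and 4 with Glatopa. With AcN, 1 member was left both with the mean over the probes of a gene and with lot as a random block. AcN came from 1 lot, so this block held all 8 AcN wells. Lot and material cannot be told apart there, and the drop says nothing about the AcN calls. For AcN against Copaxone the count was 0 with the methods' t-test, with the intensity trend and robust prior, and with the replicate block. For AcN against Glatopa it was 1 with the t-test. Leaving out 1 replicate or lot at a time gave 7 to 8 members for Copaxone, 5 to 7 for Glatopa and 2 to 3 for AcN against media, 0 to 1 for AcN against Copaxone, and 1 to 2 for AcN against Glatopa. Klra23 was the least stable call: with the mean over probes its differences from media were 0.08, 0.09 and 0.11 with Copaxone, Glatopa and AcN, all not called, and with cyclic loess the Glatopa difference was 0.22 (adjusted p = 0.0661). Klrc1 with the mean over probes was 0.13 with Copaxone and 0.15 with Glatopa, not called. Without media-only replicate 3 or 6, or Glatopa lot 1 or 3, Klrc1 lost its Glatopa call (adjusted p 0.0508 to 0.07).

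The replicate block left 3 members for Copaxone against media, where the groups share only 2 replicate numbers. The labels do not say what a replicate number stands for. Correlations between same-numbered wells ran from -0.467 to 0.178 over the 6 comparisons. For Copaxone against media the 2 correlations were 0.163 and -0.0963, too few to decide whether the numbers pair the wells. With the replicate block the Copaxone calls of Klra16 (0.59, adjusted p = 0.0525), Klra8 (0.26, 0.33), Klra23 (0.22, 0.366) and Klrc1 (0.08, 0.811) were lost. The Klrc1 difference was well below its 0.30 without the block. The Glatopa calls of Klra23 (0.24, 0.2) and Klrc1 (0.21, 0.177) were lost too. The 24 genes with a mean below 5 lie near the floor, where signal cannot be told from background. Of the 34 members, 15 were among the 19715 brighter of 39430 probes, near the share of all probes.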
